A study of Homo sapiens with 4 samples.

Results

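The E2F transcription factors and their DP partners were examined in RNA-seq of HaCaT cells, an established human keratinocyte line. The group holds 10 genes, E2F1 to E2F8, TFDP1 and TFDP2, which were taken by gene name from the 58735 genes of the deposited count tables, whatever their values. The cells had been transfected with 200 pmol of siRNA using Lipofectamine 3000, with an siRNA against ALKBH5, an eraser of m6A methylation on RNA (siALKBH5), or with a negative control siRNA (siControl). There were 2 libraries per group, all from the same cell line, and poly-A RNA was sequenced. The labels do not say which ALKBH5 siRNA was used, nor whether the libraries of a group came from separate cultures, so p-values measure only the spread between these samples, which may be technical. Levels are given as CPM, the usual scaling of counts to a common library size, here after TMM normalization, and genes were compared with the quasi-likelihood test of edgeR with Benjamini-Hochberg adjustment over all 15075 genes tested, at an adjusted p under 0.05.

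E2F proteins bind promoters of genes needed for DNA replication and cell division, most of them as dimers with a DP protein, DP1 (gene TFDP1) or DP2 (TFDP2). In resting and early G1 cells the retinoblastoma protein and its relatives p107 and p130, together called pocket proteins, hold E2F proteins in repressing complexes, and phosphorylation of the pocket proteins by cyclin-dependent kinases releases E2F1, E2F2 and E2F3 as activators. E2F4 and E2F5 act mainly as repressors with pocket proteins, E2F6 represses with Polycomb proteins, and E2F7 and E2F8 repress without a DP partner or a pocket protein. In the epidermis this network is known for the balance between proliferating basal keratinocytes and cells that leave the cycle to differentiate.

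The silencing was visible in the counts. ALKBH5 (ENSG00000091542, chr17:18183078-18209954) was counted at 1512 and 1576 under siControl against 956 and 816 under siALKBH5. Its level fell to 55.5% of control, from 90.7 ± 4.42 to 50.4 ± 1.13 CPM (SD, n = 2), with an adjusted p of 6.45e-15 from edgeR. Totals on genes were between 16017502 and 18837807 counts per library. The cell type label held: all 10 keratinocyte markers were tested, and their summed level was between 18470 and 18880 CPM in siControl and between 24370 and 24450 CPM in siALKBH5, with 4 markers higher and 4 lower. Of 6 fibroblast markers, COL1A2 and PDGFRB had no counts and the summed level was between 18.7 and 22.8 CPM, with DCN and LUM lower in siALKBH5. Summed levels were between 11.9 and 14.2 CPM for 5 melanocyte markers, of which TYR had no counts, between 2.67 and 4.28 CPM for 5 immune markers, of which CD14 was higher in siALKBH5, and between 32.5 and 35.5 CPM for 3 endothelial markers. Of the endothelial markers, PECAM1 had at most 1 count, CDH5 was lower (13.75 to 8.51 CPM) and VWF was higher (18.8 to 26.7 CPM). The part of these shifts in the values below was not tested, and in bulk RNA fewer cells of a kind and less RNA per cell cannot be told apart.

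All 10 E2F and DP genes passed the expression filter. In siALKBH5, 5 of them were higher (E2F1, E2F2, E2F7, E2F8 and TFDP1) and 0 were lower, against 19.3% of all tested genes called higher and 17.3% called lower. At an unadjusted p under 0.05 (edgeR), E2F3 joined the higher genes and E2F6 and TFDP2 were lower. The shares of all tested genes at an unadjusted p were not counted, here or for the lists below. Counts at that threshold therefore have no background to be read against. DESeq2 called 2 of the 10 higher, E2F2 and TFDP1, and 0 lower, where it called 15.1% of the 13604 genes with an adjusted p higher and 10.5% lower. None of the 10 reached a log2 fold change of 1 in size, where 1.62% of tested genes were higher and 1.3% were lower. The median log2 fold change was 0.30 over the 10 genes and -0.0081 over all genes tested. Both siALKBH5 libraries lay above both siControl libraries for 5 of the 10 genes, and below them for 3, against 32.8% and 33.5% of all tested genes.

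Several E2F genes are themselves known E2F targets, so the promoters of the group were searched for the E2F element, spelled as TTTCCCGC, TTTCGCGC, TTTGCCGC or TTTGGCGC on either strand. Promoters of 300 bases around the gene start came from RefSeq (GRCh38.p14), where 8 of the 10 genes matched, all but E2F5 and E2F8. A match was found in 4 of the 8 genes, E2F1, E2F2, E2F3 and TFDP1, and in 3.99% of all 27305 genes with a promoter. E2F3 was counted although its other promoter, at chr6:20403364-20403663, held 0 matches. No such letters stood in the windows of E2F4, E2F6, E2F7 and TFDP2. Of the 4 genes with a match, E2F1, E2F2 and TFDP1 were called higher and E2F3 was not. Over all tested genes, 19.3% were called higher. E2F7, with 0 matches, was also called higher, as was E2F8, for which no promoter was matched. Whether a match goes with a call was not tested. The windows that hold a match are shown, and capitals mark the matches. They lie at chr20:33686378-33686438 (minus strand) for E2F1, chr1:23531248-23531295 (minus strand) for E2F2, chr6:20401806-20401853 (plus strand) for E2F3 and chr13:113584613-113584660 (plus strand) for TFDP1.
E2F1: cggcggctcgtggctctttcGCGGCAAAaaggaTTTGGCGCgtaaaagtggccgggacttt
E2F2: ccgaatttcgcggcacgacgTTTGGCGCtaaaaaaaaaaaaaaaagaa
E2F3: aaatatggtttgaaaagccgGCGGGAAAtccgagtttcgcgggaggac
TFDP1: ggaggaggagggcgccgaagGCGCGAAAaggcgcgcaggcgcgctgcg
E2F1 was the one gene of the group with 2 matches, in opposite orientations and spanning positions -33 to -13 from the start site. The matches of E2F2 and E2F3 began at positions -42 and -53, and that of TFDP1 lay further upstream at -120. A match describes the letters of the reference and was not measured as binding.

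The antisense strands of the ALKBH5 siRNAs that the study lists are shown because the seed of an siRNA can pair with transcripts other than its target, and capitals mark the seed, bases 2 to 8.
ALKBH5-si1-antisense: uCGCCGAAgaaguacuugu
ALKBH5-si2-antisense: uAGUCGUUgaugacggcgc
Neither the site TTCGGCG of the first nor the site AACGACT of the second occurred in any GENCODE 29 transcript of the 10 genes. On the sense strands, the seed site of si1 was also absent from these transcripts, and that of si2, GACGGCG, occurred in transcripts of E2F2, E2F4, E2F5 and TFDP1. That site stood in 1 of 2 transcripts of E2F2, 8 of 13 of E2F4, 3 of 8 of E2F5 and 4 of 8 of TFDP1. E2F2 and TFDP1 were called higher, where 19.3% of all tested genes were, and E2F4 and E2F5 were not called. Any effect of these sites was not tested.

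Among the activators, E2F1 had the largest fold change of the group and also one of the lowest levels. E2F1 (ENSG00000101412, chr20:33675683-33686404), which drives entry into S phase, had 74 and 67 counts under siControl against 143 and 86 under siALKBH5, or 4.59 and 3.72 CPM against 7.66 and 5.23 CPM. The groups did not overlap, and replicate 1 was the high siALKBH5 library. The 95% Poisson intervals, which cover counting error only, met at their ends, at 6.45 to 9.02 CPM in replicate 1 and 4.18 to 6.45 CPM in replicate 2. E2F1 was higher by 0.65 on the log2 scale (standard error, SE, 0.19, 95% interval 0.25 to 1.04, adjusted p = 0.00836, edgeR), from 4.16 ± 0.614 to 6.44 ± 1.72 CPM (SD, n = 2). That call rested on single libraries, with a log2 fold change of 0.34 (adjusted p = 0.31, edgeR) without siALKBH5 replicate 1 and 0.50 (adjusted p = 0.0739) without siControl replicate 2, and DESeq2 gave 0.64 with an adjusted p of 0.0744.

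E2F2 (ENSG00000007968, chr1:23506430-23531220), the activator with the most counts, had 515 and 561 counts under siControl against 772 and 635 under siALKBH5. Its level was 31.96 and 31.18 CPM against 41.3 and 38.6 CPM, so that both siALKBH5 libraries were high and the groups were well separated. The mean rose from 31.6 ± 0.554 to 40.0 ± 1.94 CPM (SD, n = 2), a log2 fold change of 0.34 (SE 0.07, adjusted p = 2.54e-04, edgeR) that stayed from 0.29 to 0.39 when single libraries were left out. E2F3 (ENSG00000112242, chr6:20401906-20493715), the third activator, had 138 and 176 counts under siControl against 241 and 159 under siALKBH5. At 8.57 and 9.78 CPM against 12.9 and 9.66 CPM the groups overlapped, and siALKBH5 replicate 1 alone was high. Its log2 fold change of 0.30 (95% interval 0.014 to 0.59) did not pass the test (adjusted p = 0.0953, edgeR), and it was 0.49 (adjusted p = 0.00673) without siALKBH5 replicate 2 and 0.073 (adjusted p = 0.796) without siALKBH5 replicate 1. E2F1 and E2F3 thus shared a high value in siALKBH5 replicate 1, a library whose E2F2 value was close to that of its replicate.

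**Figure D1:**
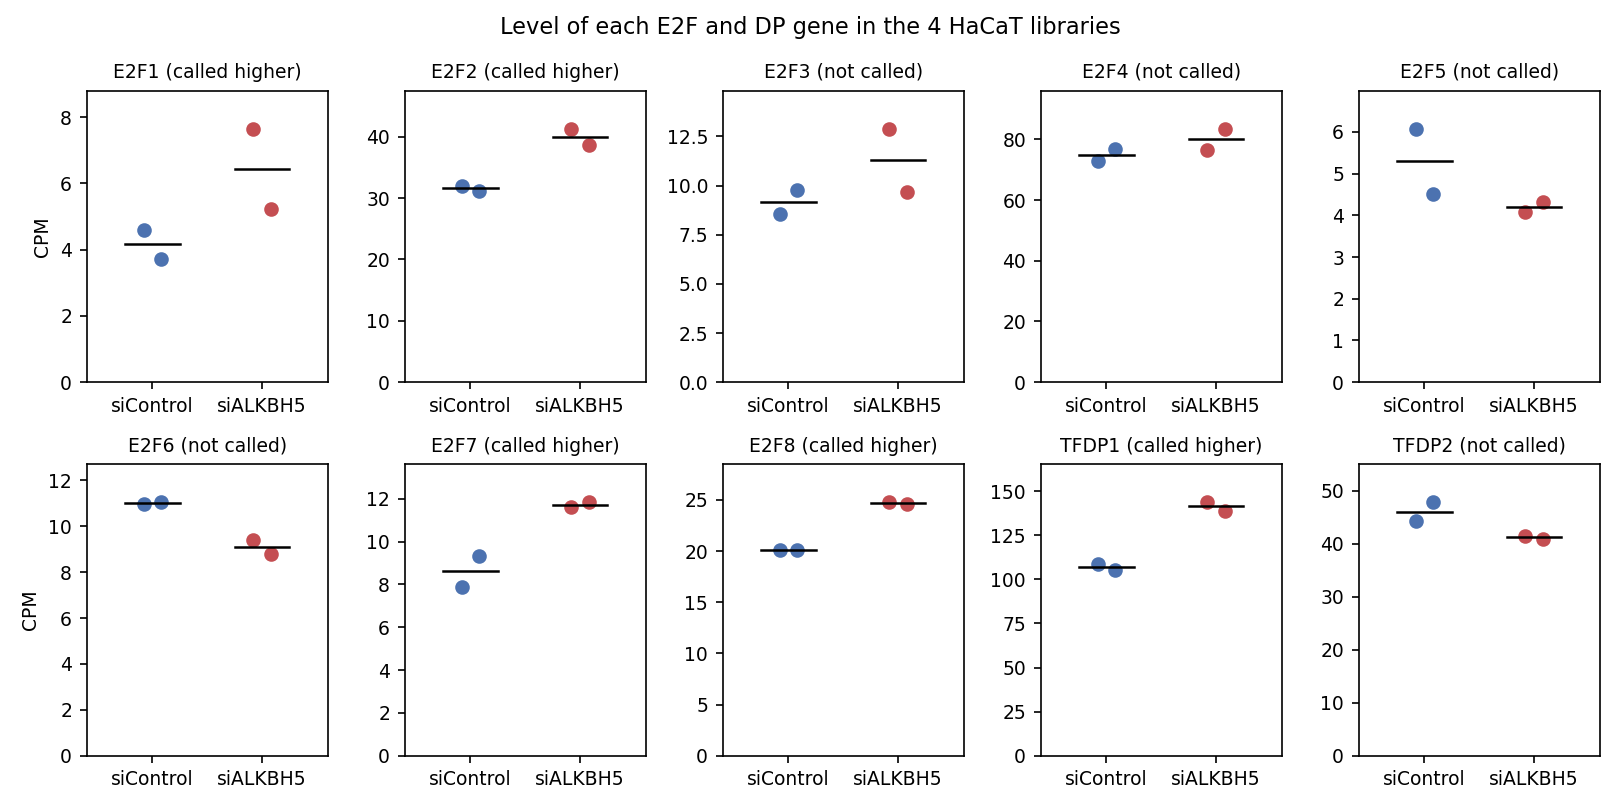
Level in CPM (vertical axes, from 0) of each of the 10 E2F and DP genes in the 2 siControl (blue) and 2 siALKBH5 (red) libraries, with black lines at the group means. TFDP1, E2F2, E2F7 and E2F8 show tight siALKBH5 pairs above control, while E2F1 and E2F3 have 1 high siALKBH5 library, at 7.66 and 12.9 CPM.

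The repressors that work with pocket proteins did not pass the test. E2F4 (ENSG00000205250, chr16:67192169-67198918), which binds target promoters with p107 or p130 in resting cells, had 1175 and 1382 counts under siControl against 1428 and 1376 under siALKBH5. Its level was 72.9 and 76.8 CPM against 76.5 and 83.6 CPM, with overlapping groups. The log2 fold change was 0.09 (95% interval -0.011 to 0.20, adjusted p = 0.16, edgeR), and 0.16 (adjusted p = 0.0356) without siALKBH5 replicate 1. It was 0.031 (adjusted p = 0.764) without siALKBH5 replicate 2 and 0.060 (adjusted p = 0.515) without siControl replicate 1. E2F5 (ENSG00000133740, chr8:85177225-85217158), a close relative of E2F4 that pairs mainly with p130, had 98 and 81 counts under siControl against 76 and 71 under siALKBH5. At 6.08 and 4.50 CPM against 4.07 and 4.31 CPM, both siALKBH5 libraries were lower, by little compared with the distance between the siControl libraries. Its log2 fold change was -0.33 with an interval of -0.73 to 0.066 (adjusted p = 0.194, edgeR), the widest interval of the 10 genes together with that of E2F1. The value was -0.10 (adjusted p = 0.806) without siControl replicate 1 and -0.54 (adjusted p = 0.0608) without siControl replicate 2. E2F5 shares 969 exonic bases, 16.4% of its exons, with C8orf59 on the opposite strand, and the strand setting of the counting is not given in the sources used here, so its counts are uncertain.

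E2F6 (ENSG00000169016, chr2:11444375-11466177), which has no pocket protein binding and represses within the Polycomb complex PRC1.6, had 177 and 199 counts under siControl against 176 and 145 under siALKBH5. Its level was 10.99 and 11.06 CPM against 9.42 and 8.81 CPM, with no overlap. The log2 fold change of -0.27 (95% interval -0.54 to -0.0056) had an unadjusted p of 0.0456 and an adjusted p of 0.105 (edgeR).

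The atypical repressors E2F7 and E2F8, which bind E2F elements without a DP partner and restrain E2F1 and the G1/S genes, both rose. E2F7 (ENSG00000165891, chr12:77021247-77065580) had 127 and 168 counts under siControl against 217 and 195 under siALKBH5, or 7.88 and 9.34 CPM against 11.6 and 11.9 CPM. The siALKBH5 libraries were close together and above both controls, and the log2 fold change was 0.44 (SE 0.13, adjusted p = 0.00893, edgeR). Without siControl replicate 1, the lower of the controls, it was 0.33 (adjusted p = 0.114), and DESeq2 gave an adjusted p of 0.0647. E2F8 (ENSG00000129173, chr11:19224063-19241620) had 324 and 362 counts under siControl against 463 and 404 under siALKBH5. Its level of 20.1 CPM in both siControl libraries rose to 24.8 and 24.6 CPM, the tightest pairs of the group. The log2 fold change was 0.29 (SE 0.09, adjusted p = 0.00813, edgeR) and ranged from 0.29 to 0.30 when single libraries were left out, with an adjusted p of 0.0613 from DESeq2.

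The DP partners had fold changes of opposite sign, and 1 of them passed the test. TFDP1 (ENSG00000198176, chr13:113584721-113641470), which encodes the main dimer partner DP1, had 1750 and 1896 counts under siControl against 2687 and 2288 under siALKBH5. Its level rose from 109 and 105 CPM to 144 and 139 CPM, far outside the spread within either group. TFDP1 had the smallest p of the group, with a log2 fold change of 0.40 (SE 0.04, 95% interval 0.32 to 0.49, adjusted p = 4.56e-10, edgeR), or 132% of control. TFDP2 (ENSG00000114126, chr3:141944428-142149544), which encodes DP2, had 713 and 862 counts under siControl against 776 and 674 under siALKBH5. At 44.3 and 47.9 CPM against 41.6 and 41.0 CPM, both siALKBH5 libraries were below both controls. Its log2 fold change of -0.16 (95% interval -0.29 to -0.028) lay at the edge of the threshold (adjusted p = 0.0529, edgeR), and was -0.21 (adjusted p = 0.035) without siControl replicate 1 and -0.10 (adjusted p = 0.417) without siControl replicate 2. The 95% intervals of TFDP1 and TFDP2 lay on opposite sides of 0. Whether the fold changes of these genes differ from each other was not tested.

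**Figure D2:**
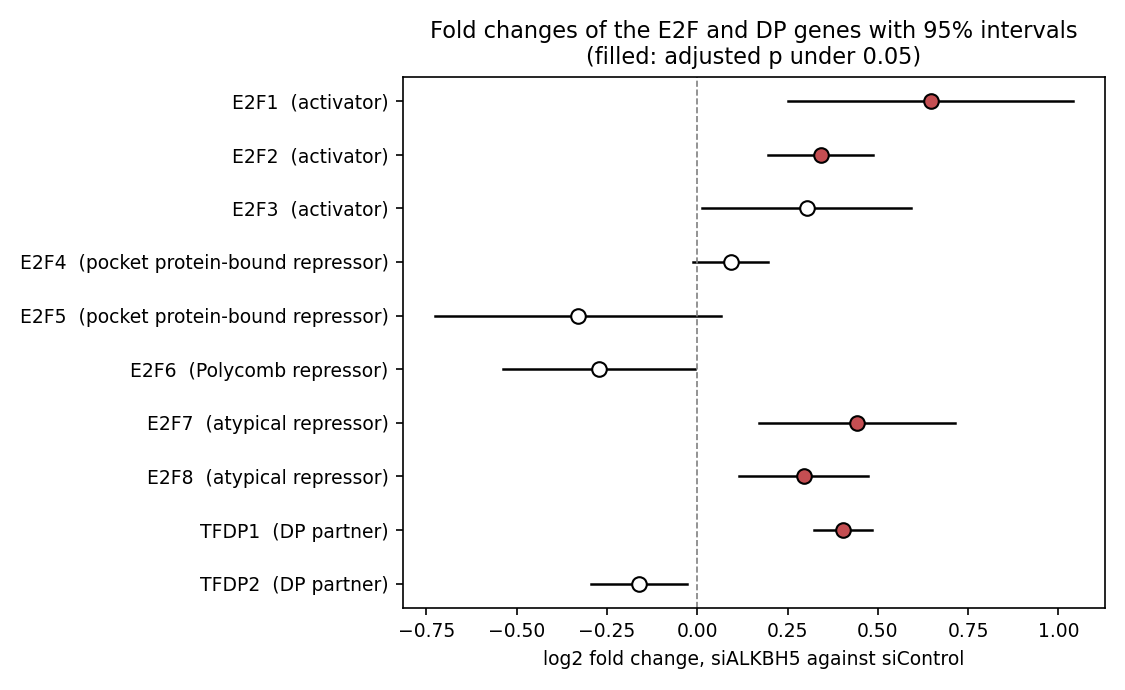
Log2 fold change of siALKBH5 against siControl (horizontal axis) for each E2F and DP gene with its role, as the edgeR estimate with its 95% interval; filled points have an adjusted p under 0.05. TFDP1 at 0.40 has the narrowest interval of the called genes, and E2F1 at 0.65 the widest.

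Counts on loci related by name were low. How reads that match several loci were counted is not given in the sources used here, so read sharing was not measured. The 9 rows of the tables with an E2F or DP name outside the group, TFDP3, 7 pseudogenes of E2F3, E2F4 and E2F6, and the intronic E2F3-IT1, held at most 2 counts in any library. Apart from E2F5, exons were shared only by E2F8, with 7 bases of an antisense gene, AC009652.2.

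Levels of different genes were compared per length, as CPM per kilobase of all annotated exonic bases of the gene, a length that matched GENCODE 29 for all 10 genes. This length covers every transcript of a gene, from 1 for E2F1 to 24 for TFDP2, and so lowers the value of genes with many long transcripts. In siControl, TFDP1 stood first with 28.6 ± 0.608 CPM per kilobase, followed by E2F4 with 20.9 ± 0.764 (SD, n = 2). A gap separated these from E2F2 at 5.79 ± 0.101, E2F8 at 4.86 ± 0.00212, TFDP2 at 3.87 ± 0.217 and E2F6 at 2.71 ± 0.0127 CPM per kilobase. E2F3 at 1.78 ± 0.166 and E2F1 at 1.66 ± 0.245 overlapped, E2F7 followed at 1.37 ± 0.163, just below E2F1, and E2F5 was last at 0.893 ± 0.189 CPM per kilobase. In siALKBH5 the first 5 places were unchanged, with TFDP1 at 37.8 ± 0.919 and E2F4 at 22.3 ± 1.41. E2F1 at 2.57 ± 0.687, E2F6 at 2.24 ± 0.107 and E2F3 at 2.19 ± 0.444 CPM per kilobase then overlapped each other.

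**Figure D3:**
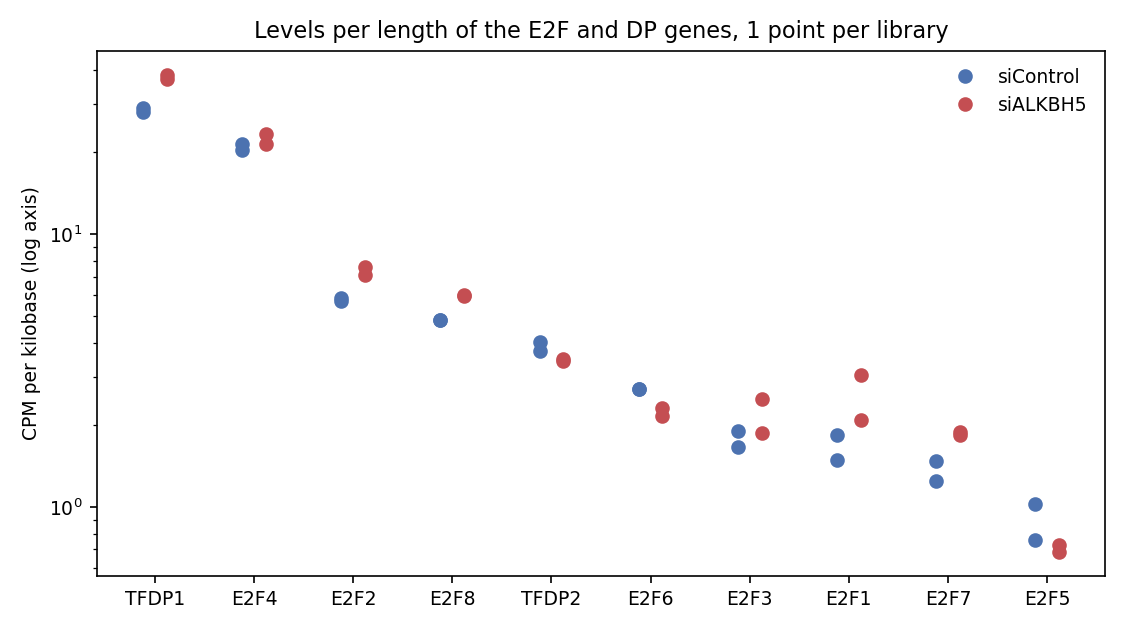
Level per length of the 10 genes in CPM per kilobase on a log axis, with 1 point per siControl (blue) and siALKBH5 (red) library, ordered by the siControl mean. TFDP1 and E2F4 lie above 20 in all 4 libraries, and E2F5 lies lowest, near or under 1.

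Summed per length, the 8 E2F genes gave 39.6 and 40.4 CPM per kilobase in siControl and 45.3 and 45.1 in siALKBH5. E2F4 alone made up 51.5% and 53.1% of that sum in siControl and 47.1% and 51.8% in siALKBH5, so its share overlapped between the groups. The activators E2F1 to E2F3 held 23.7% and 22.5% in siControl and 28.98% and 24.5% in siALKBH5, with the larger share again in siALKBH5 replicate 1. E2F7 and E2F8 together held 15.5% and 15.7% against 17.3% in both siALKBH5 libraries, and E2F6 held 6.83% and 6.74% against 5.11% and 4.81%. Of the 2 DP genes, TFDP1 held 88.6% and 87.5% of the summed level in siControl and 91.7% and 91.5% in siALKBH5. This share depends on the listed lengths, 3741 bases for TFDP1 and 11897 for TFDP2. Without division by length, the siControl means were 107 CPM for TFDP1 and 46.1 CPM for TFDP2. The ratio of TFDP1 to all E2F genes per length was 0.734 and 0.698 in siControl and 0.849 and 0.824 in siALKBH5. These shares describe mRNA levels and were not tested.

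Calls in both directions were made among the pocket proteins and the factors listed with them. Of 25 pocket proteins, cyclins, cyclin-dependent kinases, their inhibitors and related factors, 24 were tested, 9 were higher and 5 were lower. Their median log2 fold change was 0.18. The related factors include LIN9, LIN37, LIN52, LIN54 and RBBP4, and RBBP4 is among the lower genes. CCNE1, CCNE2 and RBL1 are also in the list of G1/S targets below. The 5 lower genes are a share near the 17.3% of all tested genes called lower. The 9 higher genes stand against 19.3% of all tested genes called higher, and the all-gene median was -0.0081. The higher genes with the largest change were CCNF, which encodes the F-box protein cyclin F, with 476 and 518 counts under siControl against 983 and 838 under siALKBH5 (log2 fold change 0.83, adjusted p = 5.86e-12, edgeR), and CDKN2C, which encodes the CDK4 and CDK6 inhibitor p18, at 0.72. The lower genes with the largest change were CCND2, a D-type cyclin, at -0.39, and CDKN2B, which encodes the CDK inhibitor p15, at -0.37. Among the pocket proteins, RB1 was at 0.04 (adjusted p = 0.626, edgeR), RBL1, which encodes p107 and is itself listed as an E2F target, was higher by 0.48, and RBL2, which encodes p130, was lower at -0.19. The pocket proteins were named after their values were seen.

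Most listed targets of E2F were higher in siALKBH5. Of 50 G1/S targets, 49 were tested, 41 were higher and 0 were lower, with a median log2 fold change of 0.68, against 0.30 for the E2F and DP genes. Of all tested genes, 19.3% were called higher and 17.3% lower, with a median of -0.0081. No G1/S target was lower at an unadjusted p under 0.05. DESeq2 called 40 of them higher and 0 lower, where it called 15.1% of genes with an adjusted p higher and 10.5% lower. The summed level of this list was 1257 and 1271 CPM in siControl and 1931 and 1916 CPM in siALKBH5. CDC45, part of the replicative helicase, had 70 and 63 counts under siControl against 279 and 258 under siALKBH5 (log2 fold change 1.97, adjusted p = 8.51e-13, edgeR), and ORC1, which marks replication origins, was at 1.56. The tested genes that were not called included CCNE1 and CCNE2, which encode the E-type cyclins, and MCM3, a subunit of the replicative helicase. The E2F element stood in the promoters of 24 of 43 matched G1/S targets, or 55.8%, against 3.99% of all genes with a promoter. These genes were listed as E2F targets, so this share describes the list and says nothing about the libraries.

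Of 30 G2/M targets, which are bound by E2F4 complexes in resting cells and later by B-MYB and FOXM1, 29 were higher and 0 lower, with a median log2 fold change of 0.80. The shares over all tested genes were 19.3% higher and 17.3% lower, with a median of -0.0081. Again no listed target was lower at an unadjusted p under 0.05. DESeq2 called 28 of the list higher and 0 lower, against 15.1% and 10.5% of genes with an adjusted p. Their summed level was 2306 and 2290 CPM in siControl and 4002 and 3984 CPM in siALKBH5. BIRC5, which encodes survivin, was at 1.13 and FOXM1, the transcription factor of mitotic genes, at 1.11. The E2F element stood in 3 of 24 matched G2/M promoters, or 12.5%, against 3.99% of all genes with a promoter.

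**Figure D4:**
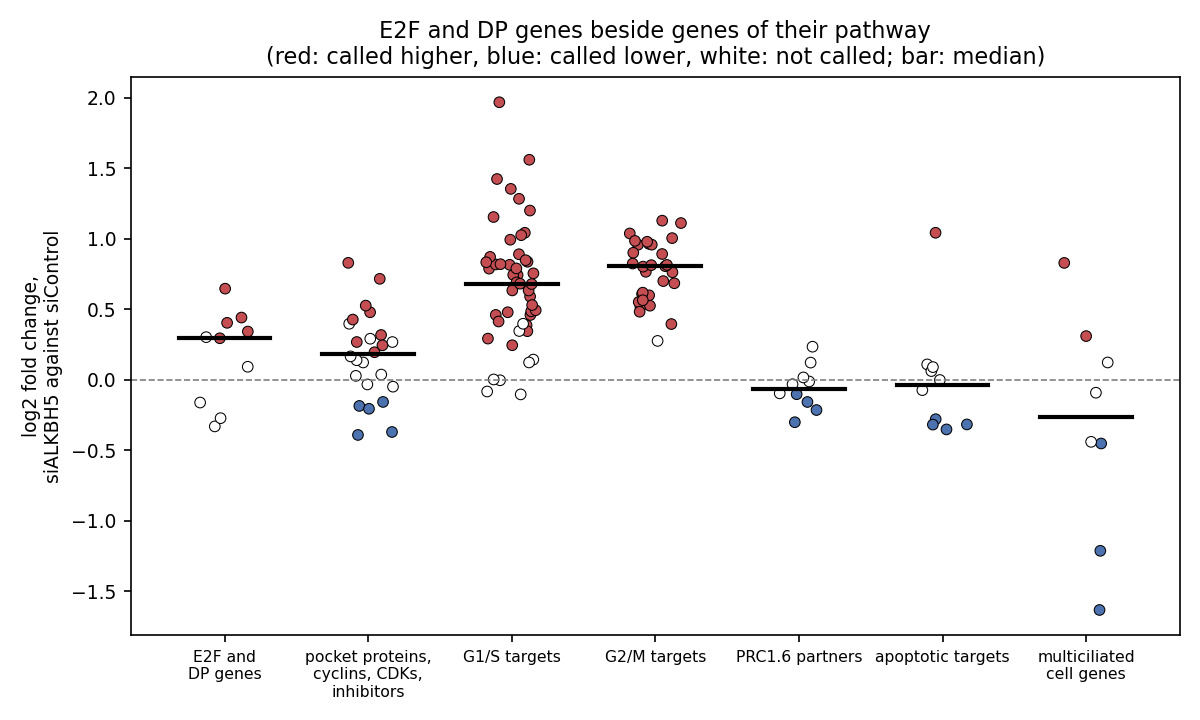
Log2 fold change of siALKBH5 against siControl (vertical axis) of each tested gene in the E2F and DP group and in 6 lists of its pathway; red points were called higher, blue lower, white not called, and bars are medians. The medians are 0.30 for the E2F and DP genes, 0.68 for G1/S targets and 0.80 for G2/M targets, and the PRC1.6, apoptotic and multiciliated cell lists have medians under 0.

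The lists that follow belong to particular E2F proteins, and their counts stand against 19.3% of all tested genes called higher and 17.3% called lower, with a median of -0.0081. Of 10 partners of E2F6 in PRC1.6, 0 were higher and 4 lower (edgeR; 1 higher at an unadjusted p under 0.05, and 0 higher and 1 lower by DESeq2), with a median of -0.064. MGA, the scaffold of that complex, was at -0.30 (adjusted p = 0.00117, edgeR) and RYBP, a Polycomb subunit, at -0.21, and the RYBP call was lost without siControl replicate 2 (-0.16, adjusted p = 0.266) or siALKBH5 replicate 2 (-0.15, adjusted p = 0.283). The number of lower partners was between 1 and 3 with each library left out, and 1 without siControl replicate 2. Of 11 germline genes that E2F6 is known to silence, 7 had no counts in any library and 2 were tested, with none called by edgeR or DESeq2 and 0 at an unadjusted p under 0.05.

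Of 10 apoptotic targets of E2F1, 1 was higher and 4 were lower, with a median of -0.037. TP73, a p53 family gene that E2F1 is known to induce, was higher, with 129 and 126 counts under siControl against 288 and 254 under siALKBH5 (log2 fold change 1.04, adjusted p = 4.97e-08, edgeR). The BH3-only genes BCL2L11 (BIM), at -0.35, and PMAIP1 (NOXA), at -0.32, were lower. Of 11 genes of multiciliated cells, where E2F4 and E2F5 act with multicilin, 8 were tested, 2 were higher and 3 lower, with a median of -0.27. CEP152, a centriole protein also used in dividing cells, was at 0.83, and PLK4, the kinase that starts centriole duplication, at 0.31, a call lost without siControl replicate 2 (0.29, adjusted p = 0.0947) or siALKBH5 replicate 1 (0.28, adjusted p = 0.0814). FOXJ1, the transcription factor of motile cilia, had 74 and 71 counts under siControl against 21 and 27 under siALKBH5, a log2 fold change of -1.63 (adjusted p = 9.93e-06, edgeR). MCIDAS, which encodes multicilin, had 28, 26, 16 and 8 counts and a log2 fold change of -1.21 (adjusted p = 0.0211, edgeR), which was not called without siControl replicate 1 (adjusted p = 0.142), siControl replicate 2 (0.0533) or siALKBH5 replicate 2 (0.212). The third lower gene was CCNO, whose call was lost without siControl replicate 2 (-0.30, adjusted p = 0.17), which left 1 lower gene of this list.

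The genes whose pattern over the 4 libraries lay closest to that of E2F1, by the root mean square distance of centred log2 CPM among 13625 genes, were KIF24 at 0.0358, AL136164.4 at 0.0395 and SFMBT2 at 0.0608. KIF24, a kinesin gene, had 87 and 79 counts under siControl against 161 and 104 under siALKBH5. Its high value in siALKBH5 replicate 1 follows from its choice by likeness to E2F1. KIF24 was called higher (adjusted p = 0.00554, edgeR), while AL136164.4 (0.0871) and SFMBT2 (0.0663) were not called.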

How the data were processed

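RNA-seq of 4 HaCaT libraries was used, 2 siControl and 2 siALKBH5, grouped by their titles. Per the submitters' processing notes, which list tools without their roles, CASAVA, HISAT2 2.0.5, featureCounts 1.5.0-p3, DESeq2 1.20.0 and hg38 were used. The authors deposited 1 table per replicate number with raw counts per gene, without normalization, for 1 siControl and 1 siALKBH5 library. FPKM in the deposited tables use a library size set separately for each table and were not used, so levels per length were recomputed from the counts. The authors' own log2 fold changes and p-values, which set a single library against a single library, were left out.

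Counts were fitted across all genes with edgeR 4.0.16 under R 4.3.3, using filterByExpr, TMM, glmQLFit and glmQLFTest without covariates, after tests on simulated data. The common biological coefficient of variation was 0.0253, with 2 residual degrees of freedom. No permutation of 2 against 2 libraries can reach p = 0.05. Depth was 16017502 to 18837807 counts per library. The libraries of a group differed by more than counting error, with a chi-square per degree of freedom of 1.76 in siControl and 1.89 in siALKBH5. Alternatives were DESeq2 1.42.0, its size factors in edgeR, scaling by library size alone, testing without a filter or with a minimum mean of 10 counts, a block for the replicate number, a log2 fold threshold of 1, library totals in place of TMM for levels per length, and each library left out.

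The genes and lists were chosen with earlier results of these data known. Named genes are the 10 members, ALKBH5, related or overlapping loci, the 2 higher and 2 lower genes of each pathway list with the largest fold change, given a mean CPM of 1 or more, and the 3 genes most like E2F1. Genes outside this rule, such as the uncalled G1/S targets, CCNO and the pocket proteins, were named after their values were seen.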

Additional observations from a re-analysis of the deposited data

How the results depend on the processing

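Over 10 alternatives to the test, scaling, filter, block or libraries, 89 of 100 log2 fold changes of the 10 genes kept their direction and their side of the threshold, 6 lost and 5 gained a call, and 0 changed sign. DESeq2 called 2 of the 10 genes higher, with E2F1 at 0.64, E2F7 at 0.45 and E2F8 at 0.30 no longer called, and 1431 of all genes lower in place of 2610. It also called 1 PRC1.6 partner lower, and 1 gene of multiciliated cells higher and 1 lower. With no filter, 1 PRC1.6 partner was lower, and so were 2391 of all genes. A log2 fold threshold of 1 left 0 of the 10 genes. With library size only, 1 of the 10 genes was lower, TFDP2 at -0.18, and so were 2894 of all genes. Libraries with the same replicate number share a deposited table, and the labels do not say whether they share a batch or culture. Their deviations had a correlation of 0.034 over all tested genes, and a shared batch was not tested. With the replicate number as a block, 5 of the 10 genes were higher and 1 lower, TFDP2 at -0.16 (adjusted p = 0.0413, edgeR). With that block, 3091 of all genes were higher and 2831 lower. With each library left out, 4 to 6 of the 10 genes were higher and 0 to 1 lower, as were 1 to 3 PRC1.6 partners and 0 to 1 germline genes. Between 1 and 2 genes of multiciliated cells were then higher and 1 to 3 lower. Where 1 library is left, it is assumed to vary like the other group. Log2 fold changes were then 0.34 to 0.89 for E2F1, 0.073 to 0.49 for E2F3, 0.031 to 0.16 for E2F4, -0.54 to -0.10 for E2F5, 0.33 to 0.57 for E2F7 and -0.21 to -0.10 for TFDP2. Library totals in place of TMM gave a level per length of 2.73 against 2.71 for E2F6 in siControl. For E2F8 they gave 4.89 against 4.86 in siControl and 5.90 against 5.96 in siALKBH5. Such a change of scaling moves every gene of a library by the same factor, and the TMM factors were 0.992 to 1.008. These levels stood out only because the SD between their 2 libraries was small. The cause of the shifts under the other alternatives was not tested. E2F1 and E2F5 had at most 143 counts in a library, which limits their precision.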
